A study of Homo sapiens with 6 samples.

Results

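Dense clusters of accessible regions away from promoters were described in GM12878, a lymphoblastoid B-cell line of human origin. In ATAC-seq the transposase Tn5 cuts and tags open chromatin, and sites where tagged fragments pile up are called as peaks. The peaks of 6 libraries were merged into 56447 regions. A region was kept when it lay on an autosome, was called in all 6 libraries and was more than 2 kb from every start of a protein-coding transcript. The 11076 regions kept are called distal here. Distal regions with gaps of at most 12.5 kb were joined, and a cluster had at least 5 regions. This left 115 member regions in 20 clusters, which were 1.04% of the distal regions and 0.204% of all merged regions. Members were chosen by the peak calls of the 6 libraries and by position. Membership, and with it the number, the size and the density of the clusters, follows from this rule and is given as a description.

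All 6 libraries came from GM12878 cells fixed with 1% formaldehyde, transposed and reverse crosslinked overnight at 65 °C, and no antibody was used. The groups were labelled by how the crosslinks were reversed, with 2 replicate libraries of each. In the old protocol the crosslinks were reversed in a buffer with SDS and the DNA was cleaned up before PCR. The new buffer lacked SDS, and PCR followed with a DNA clean-up (purified new buffer) or without it (unpurified new buffer). For the unpurified workflow the methods also give a changed detergent in the lysis, a stop of the transposition with EDTA and removal of the supernatant. The labels list these steps for each library, so whether they differed between the groups is not known. The labels do not say whether the replicates were separate cultures, so the spread between them may be technical. The study asked whether the new buffer, with or without purification, gives libraries comparable to those of the old one. GM12878 is a single line, so the values describe these cells and not B cells of other donors.

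Distal accessible sites include enhancers, which are bound by transcription factors and act on promoters that can lie far away along the chromosome. Enhancers are unevenly spread over the genome, and runs of closely spaced sites are often found at genes with high or cell type-specific expression. In B cells such sites are bound by factors of the ETS, RUNX, AP-1, IRF, NF-kB, OCT and EBF families. Open sites also occur at the starts of non-coding RNAs, and an excess of reads can be mapped where copies of a repeat are missing from the reference sequence.

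Each list held 30136 to 38023 peaks. The lists contain no read totals, but the number of reads at each summit was solved from the fold enrichment and the p-value that MACS2 writes, exactly within 0.001 for 100% of the peaks. The median over all peaks of a library was 20 to 22 summit reads. Over the same lone distal regions it was 21 to 27. Whether depth or enrichment differed between the libraries cannot be told from the lists. As a check of the cell type, a peak within 1 kb of a transcript start was found in all 6 libraries for the B-cell markers MS4A1, EBF1 and CD74. CD79A had one in 4 libraries, and CD79B and PAX5 each had one in 1 library. Of the other markers, CD8A (1 of 4 T-cell genes) and CEBPA (1 of 3 myeloid genes) had peaks in all 6 libraries, and the 3 erythroid and 3 epithelial genes had none.

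The first and the third cluster by size did not look like the rest, and the label of distal elements is doubtful for them. The largest cluster had 10 members in 49614 bp at chr16:46386051-46435664 and began 249 bp from a run of unknown bases at least 1 Mb long. The third had 7 members in 34807 bp at chr2:92290652-92325458 and lay 713 bp from another such run. A 300-base window around the summit had a further match in the genome, of at least 90% identity over at least 80% of the window, for 9 of 10 members on chromosome 16 and for 7 of 7 members on chromosome 2. None of the 98 members of the other 18 clusters had such a match, whereas 342 lone distal regions (4.22%) and 115 regions in groups of 2 to 4 (4.04%) had one. The nearest coding start was 214241 bp away for the cluster on chromosome 16 (SHCBP1) and 1752255 bp away for the cluster on chromosome 2 (RP11-685N3.1). The main values below are also given without these 17 members.

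The sequences of 9 members are shown, to set the clusters beside the gaps against others and to show the motif matches described below. Member 9 on chromosome 16 is the only member of its cluster without a further match in the genome. Each is the member with the highest mean log2 fold enrichment of its cluster. The 100 bases are centred on a summit and come from the reference sequence GRCh37, another name of hg19. Capitals mark matches to the motif letters and lower case marks all other bases.

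Chromosome 16 cluster, member 9, chr16:46427544-46427643 (hg19, + strand): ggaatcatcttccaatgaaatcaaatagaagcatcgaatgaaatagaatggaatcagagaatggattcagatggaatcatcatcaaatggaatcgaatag
Chromosome 2 cluster beside the gap, member 1, chr2:92290948-92291047 (hg19, + strand): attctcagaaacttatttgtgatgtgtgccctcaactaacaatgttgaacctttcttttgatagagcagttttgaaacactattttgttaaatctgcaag
ANXA2R cluster, member 6, chr5:43018132-43018231 (hg19, + strand): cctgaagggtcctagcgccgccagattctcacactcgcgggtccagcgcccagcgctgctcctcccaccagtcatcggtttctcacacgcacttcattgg
ECHDC3 cluster, member 5, chr10:11752828-11752927 (hg19, + strand): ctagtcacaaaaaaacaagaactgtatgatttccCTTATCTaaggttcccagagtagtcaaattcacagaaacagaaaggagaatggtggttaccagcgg
GNG12 cluster, member 6, chr1:68225863-68225962 (hg19, + strand): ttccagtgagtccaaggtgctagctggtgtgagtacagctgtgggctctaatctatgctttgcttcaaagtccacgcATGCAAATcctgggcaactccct
ST8SIA4 cluster, member 3, chr5:100188746-100188845 (hg19, + strand): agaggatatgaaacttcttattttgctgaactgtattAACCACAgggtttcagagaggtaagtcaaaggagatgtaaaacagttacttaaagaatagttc
ATP10D cluster, member 5, chr4:47533774-47533873 (hg19, + strand): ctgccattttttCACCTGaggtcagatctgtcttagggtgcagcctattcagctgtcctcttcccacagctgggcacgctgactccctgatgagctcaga
MAML2 cluster, member 5, chr11:96000872-96000971 (hg19, + strand): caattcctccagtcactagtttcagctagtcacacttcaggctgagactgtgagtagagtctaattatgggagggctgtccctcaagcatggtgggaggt
LLPH cluster, member 4, chr12:66460144-66460243 (hg19, + strand): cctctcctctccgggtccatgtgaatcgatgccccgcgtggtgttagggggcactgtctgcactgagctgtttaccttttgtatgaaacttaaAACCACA

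The window on chromosome 16 consists largely of variations of the pentamer ggaat. This pentamer or its reverse complement was found 14 times per 300-base window over the 10 members of that cluster, 1.86 times in the cluster on chromosome 2 and 0 to 1 times in the other 18. The mean over lone distal regions was 0.439. In the other sequences, capitals show a GATA match in the ECHDC3 cluster, an OCT match in the GNG12 cluster, RUNX matches in the ST8SIA4 and LLPH clusters and an E-box in the ATP10D cluster. The windows shown for ANXA2R and MAML2 have no match. Windows taken in the same way at KCMF1, SLC15A4, PDE4B, NCK2, DUSP22, ACKR3, ITPR1 and CLNK had none either and are not shown. The choice shown thus favours windows with a match. A match is only a run of letters, and binding was not measured.

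The 20 clusters lay on 11 chromosomes, with 4 on chromosome 2 and 3 on chromosome 8. There were 12 clusters of 5 members, 4 of 6, 3 of 7 and 1 of 10. Among smaller groups there were 1036 pairs, 211 groups of 3 and 36 groups of 4, and 8112 distal regions stood alone. The clusters spanned 17618 to 49614 bp, with a median of 32457 bp and a sum of 652029 bp. Members were 296 to 1380 bp wide, with a median of 683 bp, against 667.5 bp for lone regions and 652 bp for regions in groups of 2 to 4.

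The 95 gaps inside clusters ranged from 67 to 12371 bp, with a median of 5296 bp. Of these gaps, 16 came within 1 kb of the limit for joining, and 10 were shorter than 1 kb. Over all 11054 gaps between neighbouring distal regions the median was 96157 bp, and 1661 gaps (15.0%) were short enough to join. Just outside the limit were groups that would have reached 5 or 6 members over gaps of 13042 bp near ZC3H12C, 13179 bp near ZNF608, 13261 bp near RNF19A, 13299 bp near PMAIP1 and 13316 bp near RGS1. Groups of 4, just under the limit of size, had a median of 31.3 summit reads and 5.67-fold enrichment, beside 36.7 reads and 5.59-fold in clusters of 5.

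**Figure D1:**
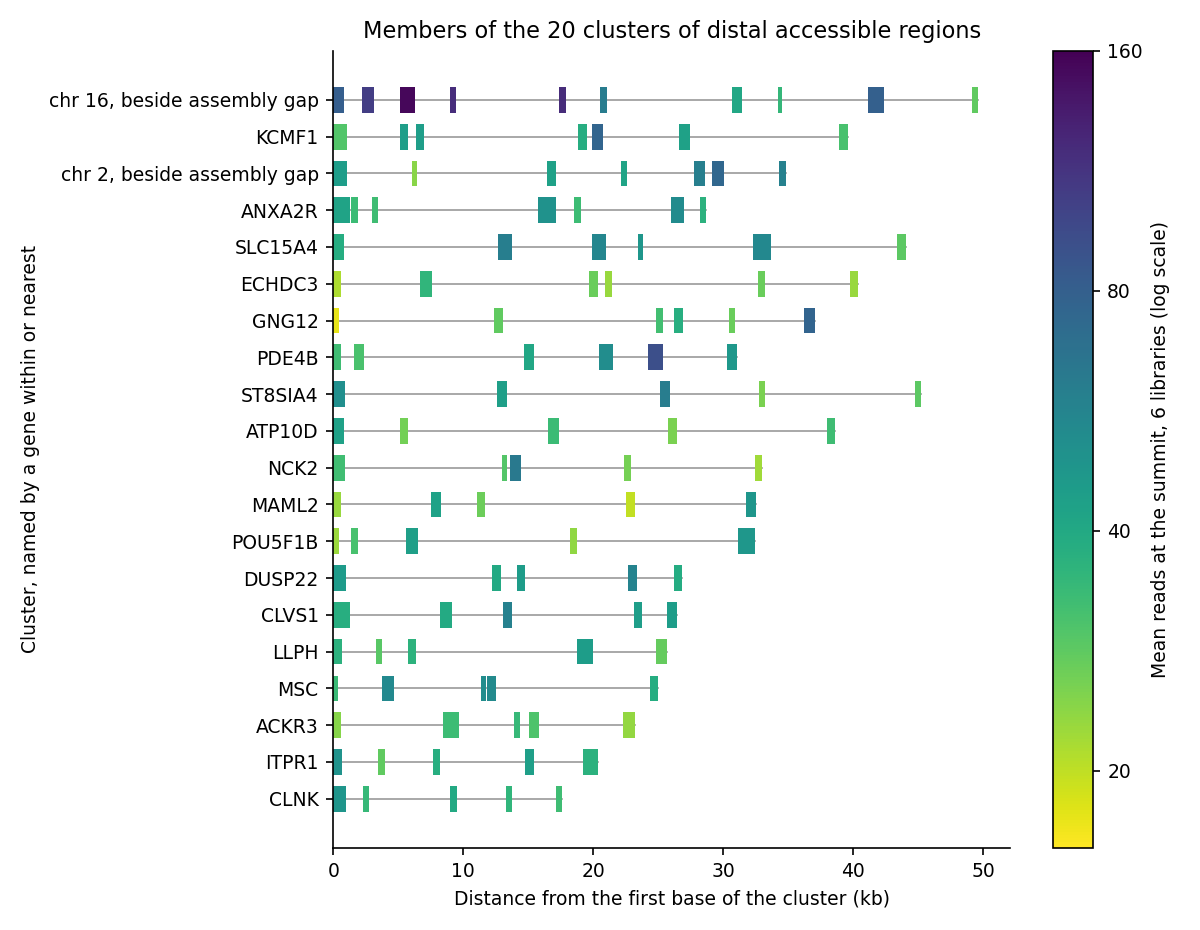
Map of the 20 clusters in order of size. The horizontal axis is the distance from the first base of each cluster in kb, each block is a member drawn to scale, and the colour gives its mean number of summit reads over the 6 libraries on a log scale. The darkest block, with 153 reads, is member 3 on chromosome 16, and the spans run from 49614 bp in the first cluster, of 10 members, to 17618 bp in the last, of 5.

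Of the 115 summits, 46 were intergenic, 43 were in introns of protein-coding genes, 26 were in non-coding genes only and 0 were in exons of protein-coding genes. All 17 members beside the gaps were intergenic. Members were 2047 to 1786517 bp from the nearest coding start, with a median of 42941 bp. Of them, 80 were more than 20 kb and 28 more than 100 kb away. Without the 17 members the median was 30982 bp, and 63 and 11 of 98 were as far. A coding gene overlapped 10 clusters, and the other 10 lay between coding genes. The nearest coding start is only a neighbour by position, and no contact with a promoter was measured.

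In 5 clusters a coding start lay inside the span, more than 2 kb from each member. These were at SLC15A4, a lysosomal transporter used in Toll-like receptor signalling, PDE4B, a cyclic AMP phosphodiesterase, NCK2, an adaptor with SH2 and SH3 domains, DUSP22, a phosphatase, and MSC, a basic helix-loop-helix repressor. The SLC15A4 cluster had 6 members at chr12:129281921-129326014. The PDE4B cluster had 6 members at chr1:66815678-66846700. The NCK2 cluster (chr2:106406137-106439089), the DUSP22 cluster (chr6:305342-332149) and the MSC cluster (chr8:72739282-72764238) had 5 members each. The next coding gene to the DUSP22 cluster, 59590 bp away, was IRF4, a transcription factor of B and plasma cells.

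Another 5 clusters overlapped a gene body, at some distance from its starts. The GNG12 cluster, in the gene of a G protein gamma subunit, had 6 members at chr1:68189311-68226343, and the nearest coding start was that of the stress-induced gene GADD45A at 38223 bp. ST8SIA4 encodes a polysialyltransferase, and its cluster had 5 members at chr5:100163351-100208544, 30374 bp from its start. ATP10D, a member of the lipid flippase family, had 5 at chr4:47495665-47534242, 8349 bp from its start. MAML2, a coactivator of Notch, had 5 at chr11:95968740-96001245, 75114 bp from its start. ITPR1, a calcium release channel of the endoplasmic reticulum, had 5 at chr3:4872604-4892992, 16281 bp from its nearest start, of which the last lay outside the gene.

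Apart from the clusters beside the gaps, 8 clusters lay between coding genes. The KCMF1 cluster had 7 members at chr2:85146504-85186077, between KCMF1, a ubiquitin ligase, 12139 bp away and TMSB10, an actin-binding thymosin, 13724 bp away. The ANXA2R cluster had 7 at chr5:42991873-43020574, 19847 bp from the start of the annexin A2 receptor gene. The ECHDC3 cluster had 6 at chr10:11719985-11760381, with ECHDC3 at 24000 bp and USP6NL, a regulator of RAB5, at 66336 bp. The ACKR3 cluster had 5 at chr2:237445354-237468605, 7825 bp from the gene of an atypical chemokine receptor for CXCL12.

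The remaining 4 of these were farther from coding starts. The CLNK cluster had 5 members at chr4:10731638-10749255, 3 of them in the non-coding gene LINC02498, and was 45246 bp from CLNK, an adaptor of immune receptor signalling. The LLPH cluster had 5 at chr12:66441019-66466720, with LLPH at 57762 bp and IRAK3, an inhibitor of Toll-like receptor signalling, at 116255 bp. On chromosome 8, 5 members at chr8:128190813-128223220 lay in the non-coding genes PCAT1 and CASC19, 111208 bp from POU5F1B and 524460 bp from MYC, a regulator of cell growth. A further 5 members at chr8:61815869-61842288 were 127429 bp from CLVS1 and 161877 bp from CHD7, a chromatin remodeller.

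The rule left out regions at coding starts but not those at starts of long non-coding RNAs. Of the 98 members of the 18 clusters, 16 (16.3%) lay within 1 kb of such a start, beside 7.48% of regions in groups of 2 to 4 and 7.86% of lone regions. All 16 were in 6 clusters. At ANXA2R 6 of the 7 members were at starts, among them those of ANXA2R-OT1, and in the cluster near POU5F1B all 5 members were within 855 bp of starts of CASC19. The others were 2 members near KCMF1 and 1 each near CLVS1, MSC and ITPR1. These shares are a description, since neighbouring members can share a gene and its starts.

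None of the 11 gene lists, which covered B-cell factors, receptor signalling, activation, NF-kB, chemokines and genes of other cell types, had a gene within or nearest to a cluster. The spans held 10 of 19222 autosomal coding genes (0.0520%) and 21 genes lay within or nearest to a span. The smaller groups of 2 to 4 regions held 6 of 22 B-cell transcription factors, namely EBF1, BACH2, IKZF1, POU2AF1, ETS1 and RUNX1. They also held 5 of 20 NF-kB genes, namely NFKB1, TNFAIP8, TNIP1, TRAF1 and BCL2L1, and 3 of 23 genes of B-cell receptor signalling, namely LYN, SWAP70 and PLCG2. Further genes in these spans were PRDM1 (1 of 10 germinal centre genes), CD58 and TNFSF4 (2 of 12 activation genes), IL16 (1 of 19 chemokine and cytokine genes) and LEF1 and TCF7 (2 of 17 T-cell genes). Over all autosomal coding genes, 602 (3.13%) overlapped a group of 2 to 4. The lists of erythroid and myeloid, epithelial and hepatic, neural and housekeeping genes had 0 in these groups. Long genes overlap a span more easily than short ones, and the part of gene length was not tested.

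Members had more reads at the summit but a lower fold enrichment, by the median, than lone regions and regions in groups of 2 to 4. The median number of summit reads of the members was 33 to 42 over the 6 libraries. It was 25 to 32 for regions in groups of 2 to 4 and 21 to 27 for lone regions. The medians of the members lay above the others in each library. Members exceeded lone regions by 13.5 ± 1.87 reads (SD, n = 6 libraries, 6 of 6 in this direction, p = 0.03125 and adjusted p = 0.0375 by the exact two-sided sign-flip permutation test, adjusted over 6 tests). They exceeded regions in groups of 2 to 4 by 9 ± 1.26 reads (SD, n = 6, 6 of 6, adjusted p = 0.0375 by the same exact permutation test). The smallest p this design allows is 0.03125. The same regions entered every library, so p measures the agreement of the 6 libraries and not the spread among regions or clusters. The calls that chose the regions rest on the same reads and their background. Neither the reads nor the fold is therefore independent of the rule.

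Fold enrichment is the number of summit reads over the local background, with 1 added to each. Its median was 5.21 to 5.53 in members, 5.84 to 6.33 in groups of 2 to 4 and 6.39 to 7.04 in lone regions. The difference between members and lone regions was -1.44 ± 0.222 (SD, n = 6, 6 of 6 lower, adjusted p = 0.0375 by the exact permutation test). Against groups of 2 to 4 it was -0.82 ± 0.189 (SD, n = 6, 6 of 6 lower, adjusted p = 0.0375 by the exact permutation test). Most of these groups were pairs. Groups of 4 alone had a median of 5.67-fold, beside 5.59-fold in clusters of 5, so the fold changed little across the limit of size.

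The local background moved with this. Its median was 5.92 to 7.06 reads at members, 3.44 to 4.20 at groups of 2 to 4 and 2.50 to 3.08 at lone regions. MACS2 takes this background from the sequence around a peak, so that reads of close neighbours count towards it. A call over a higher background needs more summit reads, and every region had to be called in all 6 libraries. The part of the background in the higher reads and the lower fold was not tested. Promoter-proximal regions had 30 to 38 summit reads, close to the members, but a background of only 3.44 to 4.36 reads and a fold of 7.03 to 7.56.

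Without the clusters beside the gaps and all regions with other copies, the 98 members left had 32 to 40 summit reads, a background of 5.54 to 6.93 reads and a fold of 5.30 to 5.63. They exceeded lone regions by 12.1 summit reads and differed from them by -1.32 in fold (p = 0.03125 for each by the exact permutation test). The higher reads and the lower fold thus held without the repeated sequence.

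**Figure D2:**
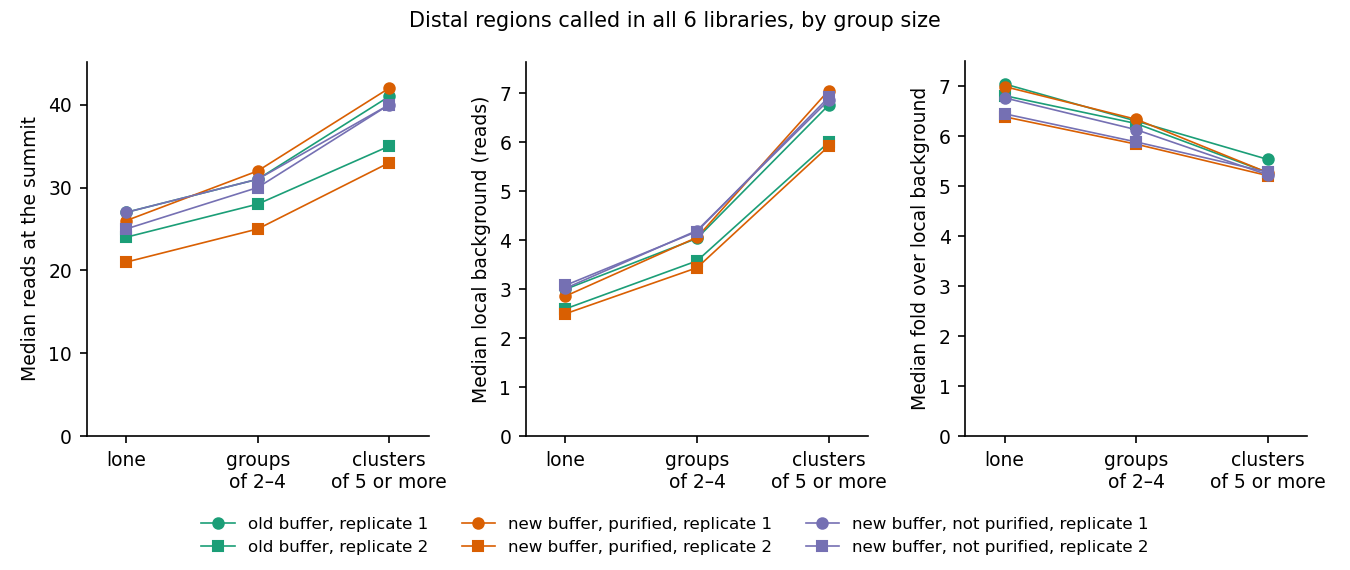
Medians of lone distal regions, regions in groups of 2 to 4 and members of clusters in each of the 6 libraries, as reads at the summit, reads of local background and fold over background. Each line is 1 library, with colour for the protocol and symbol for the replicate. In all 6 lines the summit reads and the background rise from lone regions to clusters, to 33 to 42 and 5.92 to 7.06 reads, and the fold falls.

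The length of the stretch called as peak is given as a description, since peak ends also set the gaps. Its median was 466 to 579 bp in members, 463 to 528 bp in groups of 2 to 4 and 463 to 535 bp in lone regions. The medians of members exceeded those of groups of 2 to 4 by 30.5 ± 20.0 bp (SD, n = 6 libraries) and those of lone regions by 26.7 ± 19.7 bp (SD, n = 6). Among regions with at most 1 peak per library these differences were 12.8 and 9.33 bp. Of the members, 15 held more than 1 peak in some library.

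Clusters differed widely in strength. The cluster on chromosome 16 stood apart, with a median of 71.5 to 90.5 summit reads in the 6 libraries. All other clusters had medians from 17 to 58.5 reads in each library. By the median member of the means over libraries, the MSC cluster (52.0 reads) and the SLC15A4 cluster (51.3 reads) followed, and the ECHDC3 cluster (24.9 reads) and the MAML2 cluster (26.8 reads) were lowest. Neighbours in this order were not separated, since the ranges of MSC, 42 to 55 reads, and SLC15A4, 43 to 58.5 reads, overlapped. In the chromosome 2 cluster beside the gap the medians were 50 and 49 reads with the old buffer, 42 and 42 with the purified new buffer and 55 and 54 with the unpurified one. These medians are not centred on the library, and the difference was not tested.

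**Figure D3:**
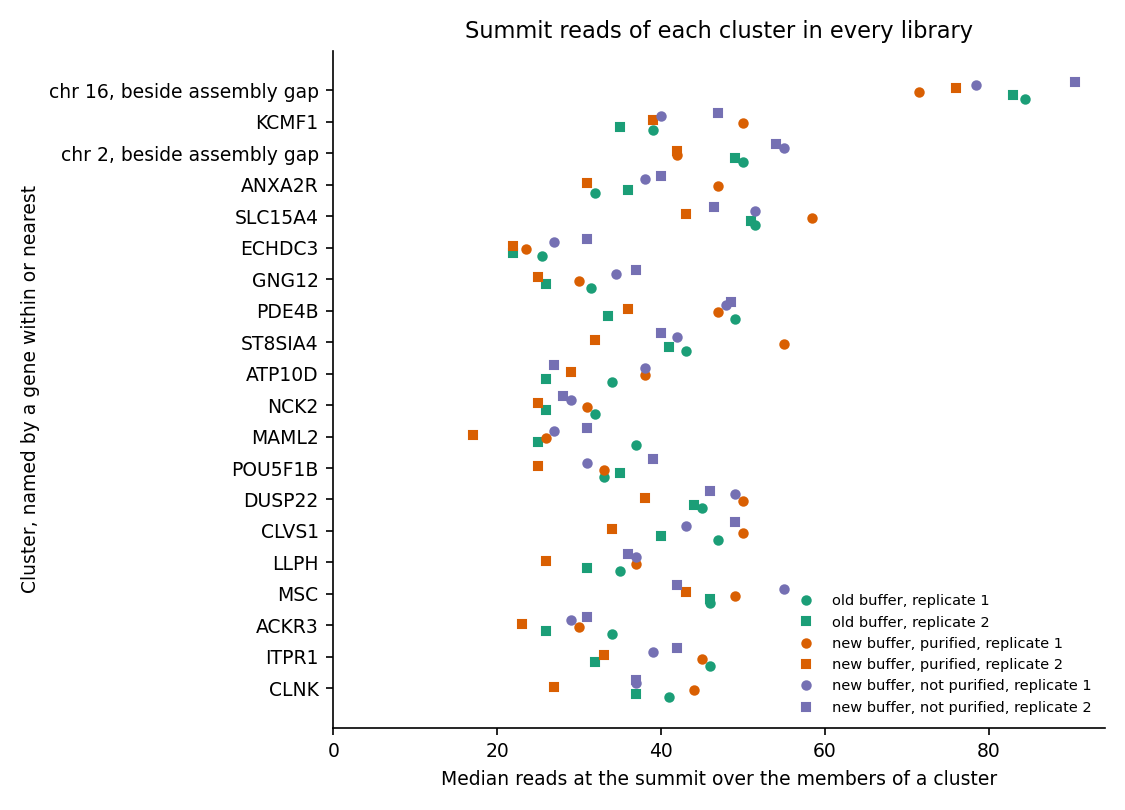
Median summit reads over the members of each cluster, with 1 point per library, coloured by protocol and shaped by replicate. The points of the cluster on chromosome 16 lie at 71.5 to 90.5 reads, right of all others. In most other clusters the points of the protocols overlap. Near ECHDC3 (27 and 31 reads) and at GNG12 (34.5 and 37 reads) the unpurified libraries lie above the rest. In the chromosome 2 cluster beside the gap the 3 protocols lie apart. The reads are not adjusted for the depth of the libraries.

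The reads on chromosome 16 lay over a high background. Its 10 members had 28.2 to 153 summit reads, the mean over the libraries, and their background reached 51.2 reads with a median of 25.4. The median fold was only 3.69. Member 3 was the highest of all 115, with 163 and 161 reads with the old buffer, 148 and 139 with the purified new buffer and 150 and 159 with the unpurified one, and its mean fold was 2.96. The cluster on chromosome 2 had a median background of 9.48 reads, and 44.8 reads at the median member.

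Member 6 of the GNG12 cluster had the highest fold of all, 10.5. It held 69 and 77 summit reads with the old buffer, 83 and 72 with the purified new buffer and 78 and 81 with the unpurified one. The other 5 members of that cluster had means of 17.5 to 37.8 reads, so that this end of the cluster stood out in each library. The OCT match in the sequence above is in this member.

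A single strong member was also seen in other clusters. Member 5 at PDE4B had 93 and 88 reads with the old buffer, 97 and 92 with the purified new buffer and 92 and 89 with the unpurified one, and was the highest outside chromosome 16. Member 5 near KCMF1 had 77 and 74, 82 and 63, and 85 and 76 reads in the same order. Member 3 at NCK2 had 65 and 63, 60 and 62, and 71 and 56 reads. Each exceeded the other members of its cluster in all 6 libraries.

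Over the 20 clusters, the highest member had 1.04 to 2.55 times the reads of the median member, with a median of 1.40. The same member was highest in all 6 libraries in 8 clusters and in at least 4 libraries in 17. In the ANXA2R and MSC clusters it was highest in only 2 libraries, so their members had no clear order. At MSC, members 2, 3 and 4 had means of 54.2, 52.0 and 53.8 reads.

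The strongest member was the first or the last of its cluster in 6 of 20. The 40 members at the ends had a median of 36.7 summit reads, a background of 5.00 reads and a fold of 5.92. The 75 inner members had 40.7 summit reads, a background of 7.09 reads and a fold of 4.92. In the 18 clusters the 36 members at the ends had 35.1 reads, a background of 5.00 reads and a fold of 5.98, and the 62 inner ones 37.9 reads, 6.74 reads and 5.03. Inner members have neighbours on both sides, and their part in the background was not tested. Fold is computed from the background, so the higher background and the lower fold are not separate observations. As a description of spread, the mean log2 fold enrichment had an SD of 0.43 among members (0.39 in the 18 clusters) and 0.31 among lone regions, and the median SD between replicate libraries was 0.15 for members and 0.18 for lone regions.

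Between the members, 38 other regions lay in the spans of the clusters. Of these, 16 were called in 1 library, 17 in 2 to 4, 3 in 5 and 2 in all 6. The last are not members because they are within 2 kb of a coding start.

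Motif letters were searched on both strands of the 300 bases around each summit. In the 18 clusters without other copies, the most frequent were the E-box CAGGTG, in 18.4% of 98 members, and the AP-1 and BATF letters TGANTCA and the ETS letters AGGAAGT, each in 17.3%. The E-box was in 21.7% of regions in groups of 2 to 4 and 21.4% of lone regions. The AP-1 letters were in 27.7% of regions in groups of 2 to 4 and 27.3% of lone regions. The RUNX letters TGTGGTT were in 10.2% of these members, beside 18.5% and 19.6%. ETS letters were in 13.6% of groups of 2 to 4 and 13.5% of lone regions. Thus members had a lower share than other distal regions of AP-1 and RUNX letters, with no test made. For the E-box, in 18 of 98 members, and ETS letters, in 17, the shares lay closer to those of other distal regions.

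Part of this depends on the window. Over the whole length of the regions, AP-1 letters were in 35.7% of members, 38.8% of groups of 2 to 4 and 39.0% of lone regions. RUNX letters were in 18.4% of members, 28.1% and 28.5%. ETS letters were in 26.5%, 22.9% and 23.2%, and the E-box in 38.8%, 41.9% and 41.2%. The lower share of RUNX letters remained over the whole region, whereas that of AP-1 came close to the others.

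Other letters were rarer. Those of PU.1, GAGGAAGT, which contain the ETS letters, were in 6.12% of the 98 members and 4.66% of lone regions. IRF letters (GAAANTGAA) were in 4.08% and 8.85%, NF-kB letters (GGANTTTCC) in 4.08% and 5.02%, and GATA letters (AGATAAG) in 4.08% and 3.87%. EBF1 letters (TCCCNNGGG) were in 3.06% and 6.19%, OCT letters (ATGCAAAT) in 3.06% and 4.02%, MEF2 letters (CTAAAAATA) in 3.06% and 1.47%, and CTCF letters (CAGGGGGC) in 3.06% and 2.18%. At 98 members, 3.06% is 3 regions. NRF1 letters (GCGCATGCG) were in 0 members, in 0.47% of lone regions and in 4.50% of promoter-proximal regions. These shares depend on the window as well. Over the whole regions, IRF letters were in 13.3% of members and 14.4% of lone regions. NF-kB letters were then in 10.2% and 7.37%, GATA letters in 7.14% and 9.49%, and EBF1 letters in 9.18% and 12.0%. PU.1 letters were in 8.16% and 7.56%, OCT letters in 7.14% and 7.69%, MEF2 letters in 8.16% and 4.93%, and CTCF letters in 4.08% and 3.81%. NRF1 letters were in 1.02% of members, which is 1 region, and 0.67% of lone regions. The order was thus reversed for NF-kB, GATA and NRF1 letters.

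By cluster, 15 of the 18 had an ETS match in at least 1 member, 11 an AP-1 match, 10 an E-box, 9 a RUNX match and 6 a PU.1 match. Several windows per cluster make at least 1 match likely, and no such count was made for other distal regions. The highest counts for their letters were at PDE4B, where 3 of 6 members had AP-1 letters, and near CLNK, where 2 of 5 had EBF1 letters. For the E-box they were at GNG12, in 3 of 6, and at ANXA2R, in 3 of 7. No motif of the list was in every member of a cluster. In the cluster on chromosome 2 beside the gap 0 of 7 members had any match, and on chromosome 16 only AP-1 letters were found, in 2 of 10 members. The median GC content was 45% in members of the 18 clusters, 44.3% in lone regions and 67.7% in promoter-proximal regions.

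**Figure D4:**
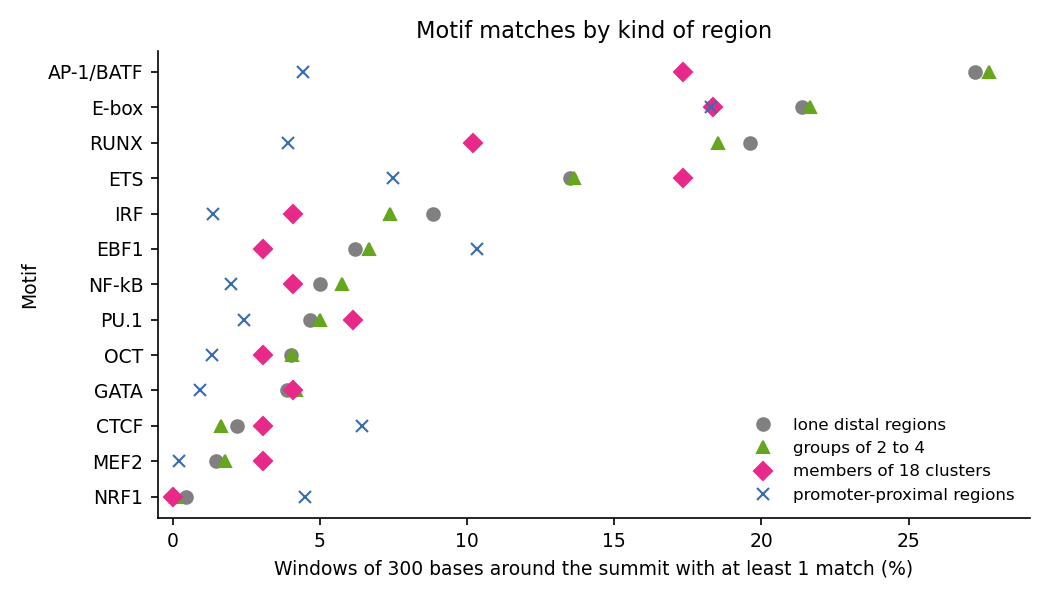
Share of 300-base windows around the summit with at least 1 match to the letters of each motif, in percent, for lone distal regions, regions in groups of 2 to 4, the 98 members of 18 clusters and promoter-proximal regions. Members lie left of the other distal regions for AP-1 (17.3% against 27.3% of lone regions) and RUNX (10.2% against 19.6%). They also lie left for IRF (4.08% against 8.85%) and EBF1 (3.06% against 6.19%) and right for ETS (17.3% against 13.5%). Over whole regions the AP-1 shares were 35.7% and 39.0%.

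No member passed the test between protocols. The log2 fold enrichment, centred on the median of each library, was tested over 19364 regions with limma. Between the purified new buffer and the old buffer, 0 of 115 members were called at an adjusted p under 0.05, where 0.00516% of all regions were called. For the unpurified new buffer against the old one it was 0 members and 0.00516% of all regions, and between the new buffer unpurified and purified 0 members and 0.0% of all regions. At an unadjusted p under 0.05, limma had 12 members (10.4%) in the first comparison, 5 (4.35%) in the second and 3 (2.61%) in the last, beside 6.9%, 6.56% and 4.85% of all regions. The share of members was above that of all regions in the first comparison and below it in the others. In the 18 clusters the limma counts were 10, 3 and 3 of 98, beside 1297, 1223 and 922 of 18890 regions in the fit without other copies. The counts changed when single replicates were left out. Such fits leave 1 library in a group, so only the median log2 difference of the members is given. In the first comparison it was -0.079 and -0.017 without old buffer replicate 1 or 2. It was -0.008 and -0.061 without purified new buffer replicate 1 or 2. In the second it was -0.036 and -0.008 without old buffer replicate 1 or 2, and -0.002 and -0.047 without unpurified replicate 1 or 2.

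The median difference of the members on the log2 scale was -0.03 between the purified new buffer and the old buffer, with 49 members higher and 66 lower. It was -0.02 for the unpurified new buffer against the old one (47 higher and 68 lower) and 0.02 between the new buffer unpurified and purified (68 higher and 47 lower). Over all regions the medians were 0.00 in each. Single members ranged from -0.61 to 0.58, from -0.43 to 0.49 and from -0.53 to 0.45, with a median SE of 0.20. With 2 libraries per protocol, differences of this size could not be told from the spread between replicates.

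**Figure D5:**
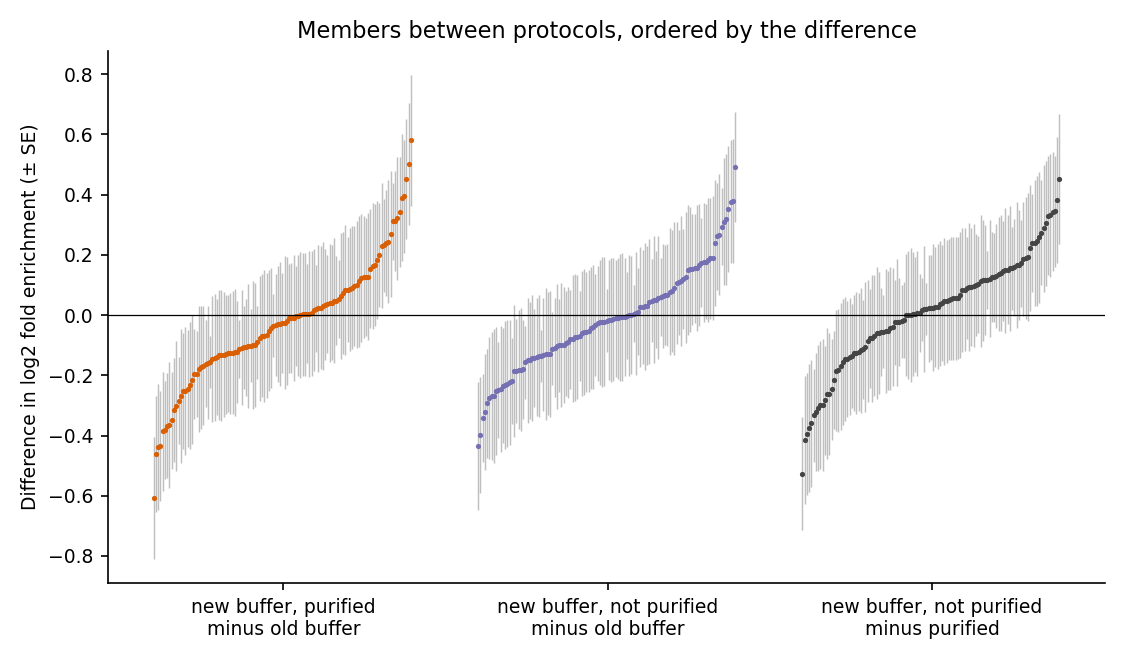
Difference in log2 fold enrichment of each of the 115 members between protocols, ordered within each comparison, with bars of 1 SE from limma. The points run from -0.61 to 0.58 in the widest comparison around medians of -0.03 to 0.02, and none passed an adjusted p under 0.05.

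The lowest p in the first comparison was that of member 7 on chromosome 16 (chr16:46416745-46417466). It had 58 and 51 summit reads with the old buffer, 25 and 28 with the purified new buffer and 41 and 41 with the unpurified one. The reads of the old buffer did not overlap those of the new buffer. The difference in log2 fold enrichment between the purified new buffer and the old buffer was -0.61 (SE 0.20, limma adjusted p = 0.556). When log2 summit reads were tested in place of fold enrichment, this difference was -1.01 (SE 0.20, limma adjusted p = 0.0101), and it was the only member called, where 0.0516% of all regions were called. In the other comparisons summit reads called 0 members, beside 0.0207% of all regions for the unpurified new buffer against the old one and 0.0% between the purified and the unpurified one. Its sequence has other copies in the genome, and the part of read mapping was not tested.

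Next came member 1 near ECHDC3, with 20 and 14 reads with the old buffer and 25 and 20 with the purified new buffer, at a log2 difference in fold of 0.58 (SE 0.22, limma adjusted p = 0.617). Member 3 at ATP10D differed by 0.50, member 4 on chromosome 16 by 0.31 and member 4 near CLNK by -0.46 in the same comparison, none of which passed. For the unpurified new buffer against the old one, the 5 members with the lowest p were member 4 of the chromosome 2 cluster beside the gap (0.49), member 2 at ITPR1 (-0.34), member 4 on chromosome 16 (0.29), member 7 near KCMF1 (-0.40) and member 1 near ACKR3 (-0.43). The lowest limma adjusted p among them was 0.635. Between the new buffer unpurified and purified they were member 2 at PDE4B (-0.53), member 5 at MAML2 (-0.33), member 6 near ECHDC3 (0.45), member 1 near ACKR3 (-0.42) and member 3 at ATP10D (-0.39), each at a limma adjusted p of 1.00.

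The lower fold of members was seen in each protocol. The median log2 fold enrichment of members minus that of lone regions was -0.35 and -0.37 in the replicates with the old buffer, -0.41 and -0.29 with the purified new buffer and -0.37 and -0.29 with the unpurified one. The values of the protocols overlapped. The differences between protocols were 0.0078 between the purified new buffer and the old buffer, 0.028 for the unpurified new buffer against the old one and 0.020 between the new buffer unpurified and purified. Their p-values were 1, 1 and 0.667 by the exact two-sided permutation test, each with an adjusted p of 1, and 2 libraries against 2 cannot go below p = 0.33.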

How the data were processed

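GM12878 cells were profiled by bulk ATAC-seq in 6 libraries, grouped by the labels into 3 protocols of 2. Following the methods, the authors mapped reads to hg19 with Bowtie2 2.1.0, kept properly paired reads of high quality, dropped mitochondrial reads and, with Picard 1.79, duplicates, and ran MACS2 for narrow peaks (q-value 0.01, version not given in the sources used here). By the methods, libraries were merged before calling and peaks in blacklisted sequence removed, but there was 1 list per library and peaks lay beside assembly gaps. The deposited score, fold enrichment (a ratio), −log10 p and −log10 q are those of the peak caller.

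From these, summit reads and local background were solved for each peak. Overlapping or adjoining peaks were merged, and a region took the values of its highest peak in each library. Coding starts came from GENCODE 44 on GRCh37. Copies were searched with blastn 2.17.0 (word size 40). Windows of 300 bases around summits were searched for motif letters. Libraries, not regions, were the replicates in the exact permutation tests. Fold enrichment was tested with limma 3.58.1 in R 4.3.3, with no pseudocount and a mean-variance trend, over autosomal regions called in all 6 libraries, with Benjamini-Hochberg adjustment. Intervals of single values were not computed, and summit reads carry counting error only after duplicates were removed. Scripts were tested on simulated data. Python 3.11.15 was used with pandas 2.3.3, SciPy 1.17.1 and pysam 0.24.0.

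The clusters named were all 20, by number of members and then span, with genes that overlap the span, or else the nearest coding start. The sequences were of the member with the highest mean log2 fold enrichment of a cluster, and the regions named between protocols were the 5 with the lowest p. The value of 1 marker gene is not reported here. Members and lists were chosen with earlier results of these data known. Alternatives were other gaps, distances from starts, calls in 5 libraries, a stricter q, means in place of medians, no centring, summit reads, a filter on fold, each replicate left out and a replicate block. Leaving out sequence with other copies, non-coding starts, motif letters over whole regions and the order of members were added after the data were seen.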

Additional observations from a re-analysis of the deposited data

How the results depend on the processing

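The clusters depended on the joining gap. With gaps of at most 5 kb there were 0 members in 0 clusters, with 10 kb 40 in 7, with 20 kb 331 in 56 and with 25 kb 487 in 82. With calls in at least 5 libraries there were 198 in 34. More than 5 kb from starts left 93 in 16, and a −log10 q of at least 5 left 83 in 14. Leaving out each replicate gave 116 to 139 members in 20 to 24 clusters, which overlapped all 20.

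Members exceeded lone regions in covered length by 43.6 bp with means, 36 bp more than 5 kb from starts and 28.3 bp without copies. At a −log10 q of at least 5 members exceeded lone regions by only 9.17 bp and groups of 2 to 4 by 15.4 bp. Lengths are descriptions. Leaving out each replicate, the differences from lone regions were 13 to 14 reads, -1.50 to -1.39 in fold and 23.2 to 32 bp, and those from groups of 2 to 4 were 8.8 to 9.4 reads, -0.87 to -0.78 and 26.4 to 36 bp. With 5 libraries p cannot go below 0.0625, so none passed there.

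Leaving out each replicate called 0 members between any protocols. This leaves 1 library in a group, which limma takes to vary like the others, so the count says little. Summit reads called 1 member (0.0516% of all regions) with the purified new buffer against the old one. The difference between protocols in the median of members minus that of lone regions was not stable in sign. Leaving out each replicate gave -0.0491 to 0.0647 for the purified new buffer against the old one, -0.0140 to 0.0705 for the unpurified against the old one and -0.0364 to 0.0774 for the unpurified against the purified new buffer. The last was -0.0070 at a −log10 q of at least 5. Single values were -0.0028 without old buffer replicate 2, -0.0491 without purified new buffer replicate 2, -0.0140 and -0.0218 without unpurified replicate 2 and -0.0364 without purified new buffer replicate 1. The cause was not tested.

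The replicate numbers did not pair the samples (correlations of replicate deviations 0.0140, 0.0131 and -0.00094). With a replicate block, limma called 0 members in each comparison, had 12, 4 and 3 at an unadjusted p under 0.05 (7.12%, 6.7% and 5.09% of all regions) and left the differences of these medians at 0.0078, 0.028 and 0.020.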
